A study of Mus musculus with 9 samples.

Results

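Slc37a3, Atraid, Fdps and Ggps1 encode the proteins that carry nitrogen-containing bisphosphonates into the cytosol and the enzymes that these drugs act on or beside, and their transcripts were counted by RNA-Seq in whole tumors of 2 mouse models of osteosarcoma (OS). They are 4 of 55367 genes in the deposited count table and were chosen by their known roles together with the differences measured between the same tumors, so the difference of each between the groups is given as a description, and no test of it is read. Slc37a3 was 3.51-fold lower in the Myc-knockin than in the p53-driven tumors, with no overlap between the groups, whereas Atraid, Fdps and Ggps1 overlapped between them. The question behind the contrast is how tumors with an activated Myc allele differ from p53-driven tumors of the same origin.

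Nitrogen-containing bisphosphonates such as zoledronic acid bind to bone mineral and are taken up by endocytosis, above all by osteoclasts, which dissolve that mineral. SLC37A3, a transporter of the lysosomal membrane, and ATRAID, the membrane protein that binds and stabilizes it, release the drug from the lysosome into the cytosol. There it inhibits FDPS, which makes farnesyl pyrophosphate in the mevalonate pathway. GGPS1 extends this product to geranylgeranyl pyrophosphate, and both lipids are attached to small GTPases such as the Rac and Rab proteins, which need them to sit in membranes.

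The p53-driven tumors (n = 4) were spontaneous tumors of Col2.3-Cre/TrpP53fl/+ mice. The Myc-knockin tumors (n = 5) were spontaneous tumors of mice whose label joins the Cre with the Lox-Stop-Lox (LSL) allele c-MycT58A and with p53fl/+. Both genotypes carry Cre under the osteoblast-specific Col2.3 promoter and a floxed Trp53 allele, so that macrophages, osteoclasts and other cells of the tumor keep their alleles, and they differ in the Myc allele that Cre switches on. The age of each mouse was not given in the labels, so a difference in age and one in genotype cannot be told apart. Total counts in the p53-driven group were 3026217 (F187), 10593069 (F325), 9498026 (F331) and 6853293 (F368). In the Myc-knockin group they were 2716322 (M351), 4295475 (M408), 3532881 (M9), 17073285 (M624) and 15769788 (M664). The column names F187, F325, F331, F368, M408 and M624 stand beside their genotype in the study's supporting data, and for M351, M9 and M664 the genotype was read from their first letter alone.

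The libraries were of unequal kinds. Counts on 11 genes, called satellite genes here, took 44.3% of F187, 67.9% of M351, 23.2% of M408 and 81.0% of M9. They took at most 0.0242% of the other 5. These genes were picked because their share in each of these 4 libraries was over 20 times the highest share in the other 5. A share of at least 0.01% in M9 was also needed. The direction of this contrast was thus set by the choice of genes, and its size was not. M624 and M664 had almost no Rn7sk, a transcript without a poly(A) tail, with 5.33 and 9.32 CPM (counts scaled to a fixed library total) outside the satellite genes, and the other 7 had at least 8858. The libraries with neither trait, F325, F331 and F368, were all p53-driven, and M624 and M664 were both Myc-knockin. F187 was the only p53-driven library with satellite reads. The kind of library and the genotype therefore cannot be fully told apart. Without the 4 libraries with satellite reads they coincide. Levels are given below as CPM after TMM normalization, in which 3 counts, the smallest number treated as detected, correspond to 0.114 CPM in M624 and 2.39 CPM in M9. Myc itself was 46.2, 43.5, 67.1 and 60.4 CPM in F187, F325, F331 and F368, and 270, 520, 144, 1045 and 905 CPM in M351, M408, M9, M624 and M664. Each library with the letter M thus lay above every p53-driven library for the altered gene. The log2 fold change of Myc was 3.41 ± 0.59 (SE), with an adjusted p of 0.0217 from the quasi-likelihood test of edgeR, adjusted by Benjamini-Hochberg. Trp53 was 10.04 ± 2.35 CPM (SD, n = 4) in the p53-driven and 14.7 ± 14.0 CPM (SD, n = 5) in the Myc-knockin group. Counts over the whole gene do not separate the deleted exons from the rest, so this value checks nothing about the floxed allele.

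Slc37a3, the transporter, showed the clearest difference of the 4. Its level was 105, 119, 85.5 and 125 CPM in F187, F325, F331 and F368. In M351, M408, M9, M624 and M664, all Myc-knockin, it was 26.5, 32.4, 31.9, 29.9 and 33.6 CPM. The lowest p53-driven tumor, F331, lay above the highest Myc-knockin tumor, M664. The means were 109 ± 17.6 CPM (SD, n = 4) and 30.9 ± 2.79 CPM (SD, n = 5), and the log2 fold change was -1.81 ± 0.23 (SE). The Myc-knockin values lay close together although they rest on 40 counts in M9, 43 in M351, 177 in M408, 778 in M664 and 785 in M624. For M9 the 95% counting interval (exact Poisson, for counting error only) ran from 22.8 to 43.4 CPM, and for M664, with more counts, from 31.3 to 36.0 CPM. Genomic background, estimated as given for Ggps1 below, would account for 16.6% of the counts in M9 and 14% in M351. In the other tumors it would account for at most 1.44%. With this background subtracted the log2 fold change was -1.77. In bulk tissue, fewer cells of a type and less transcript per cell cannot be told apart.

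Of the 4 members, all passed the filter on low counts and 1, Slc37a3, met the call of adjusted p under 0.05 and fold change over 1.5. Over all 15365 genes tested, 5.27% were called, 2.26% as higher and 3.00% as lower in the Myc-knockin group. Slc37a3 was also the 1 member of 4 whose groups did not overlap, beside 13.0% of the genes tested. Since the members were chosen on this contrast, nothing is read from these counts. The number of genes called was 809, and it was 8, 6 and 5 when F325, F331 or F368 was left out, 335 without F187, 371 without M351, 375 without M624 and 1588 without M9. The tumors are the units of every test here, so a p-value sets the difference between the groups against the spread of these 9 tumors within them. The labels do not say whether each tumor came from a separate mouse.

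Atraid, the partner of the transporter, did not follow it. Its level was 18.2, 18.8, 19.5 and 12.0 CPM in F187, F325, F331 and F368. In M351, M408, M9, M624 and M664 it was 13.5, 15.4, 17.5, 31.4 and 36.7 CPM. M624 and M664, the pair of libraries with almost no Rn7sk, lay above the other 7, and the other 3 Myc-knockin tumors lay within the range of the p53-driven tumors. The means were 17.1 ± 3.43 CPM (SD, n = 4) and 22.9 ± 10.4 CPM (SD, n = 5), and the log2 fold change was 0.44 ± 0.36 (SE). Without M624 and M664 it was -0.09, and without the 4 libraries with satellite reads it was 1.04, so the value depended on which libraries were used.

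**Figure D1:**
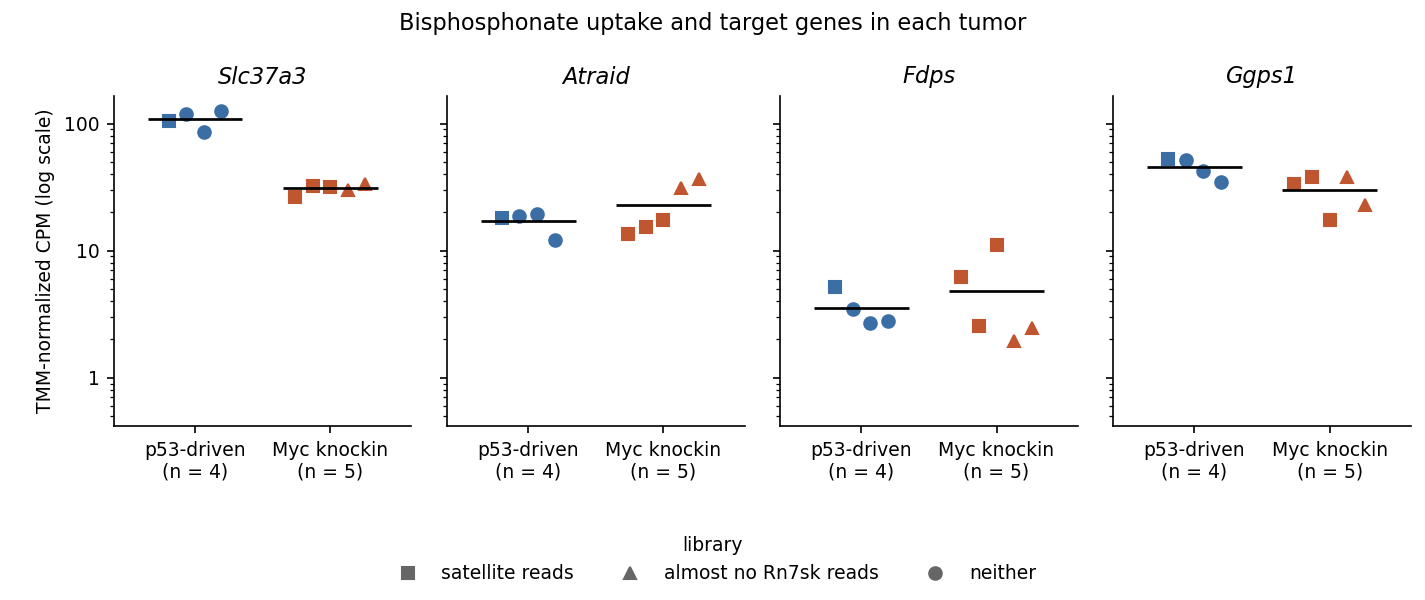
TMM-normalized CPM (log scale) of Slc37a3, Atraid, Fdps and Ggps1 in each p53-driven (blue, n = 4) and Myc-knockin (orange, n = 5) tumor, with the group mean as a black line and the kind of library as the marker shape. Slc37a3 lay between 85.5 and 125 CPM in the p53-driven tumors and between 26.5 and 33.6 CPM in the Myc-knockin tumors, and the groups of the other 3 genes overlapped.

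Ggps1, which makes geranylgeranyl pyrophosphate, had intermediate values. It was 52.9, 51.4, 42.3 and 34.9 CPM in F187, F325, F331 and F368. In M351, M408, M9, M624 and M664 it was 33.2, 38.1, 17.5, 37.7 and 22.7 CPM. Of these, M408 and M624 lay above F368, the lowest p53-driven tumor, so the groups overlapped. The means were 45.4 ± 8.42 CPM (SD, n = 4) and 29.9 ± 9.28 CPM (SD, n = 5), with a log2 fold change of -0.59 ± 0.29 (SE). In M9, the lowest tumor, the value rests on 22 counts, of which 5.80 (26.4%) would be expected from genomic background, as estimated from the counts per kilobase on 1503 chemosensory receptor genes.

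Fdps, the enzyme that the drugs inhibit, had few counts. It was 5.13, 3.50, 2.68 and 2.80 CPM in F187, F325, F331 and F368. In M351, M408, M9, M624 and M664 it was 6.16, 2.56, 11.2, 1.94 and 2.46 CPM. The groups overlapped, and the highest Myc-knockin values came from M9 and M351. Those values rest on 14 and 10 counts, of which 5.17 (36.9%) and 4.70 (47.0%) would be expected from genomic background. The means were 3.53 ± 1.13 CPM (SD, n = 4) and 4.86 ± 3.90 CPM (SD, n = 5), and the log2 fold change of 0.39 ± 0.63 (SE) was smaller than its error. With M9 left out it was -0.16, with the sign reversed.

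The count for Fdps is uncertain because its coding transcript shares much of its sequence with other annotated genes. Fdps (ENSMUSG00000059743) lies on chromosome 3 of mm10 from 89093588 to 89101959 on the minus strand. Its longest coding transcript has 1382 bases, of which 1124 (81.3%) lie in exons of Gm43738, a read-through gene on the same strand that runs on from Fdps into Rusc1. Over all merged exons of Fdps the shared part is 1124 of 4208 bases (26.7%). Gm43738 itself had 0 counts in all 9 tumors, and 97.5% of its exon bases lie in exons of Fdps or Rusc1. How reads that fall on both genes were counted was not stated. The settings under which reads with several matches were kept or dropped were not stated either, and their part in the low count was not tested.

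**Figure D2:**
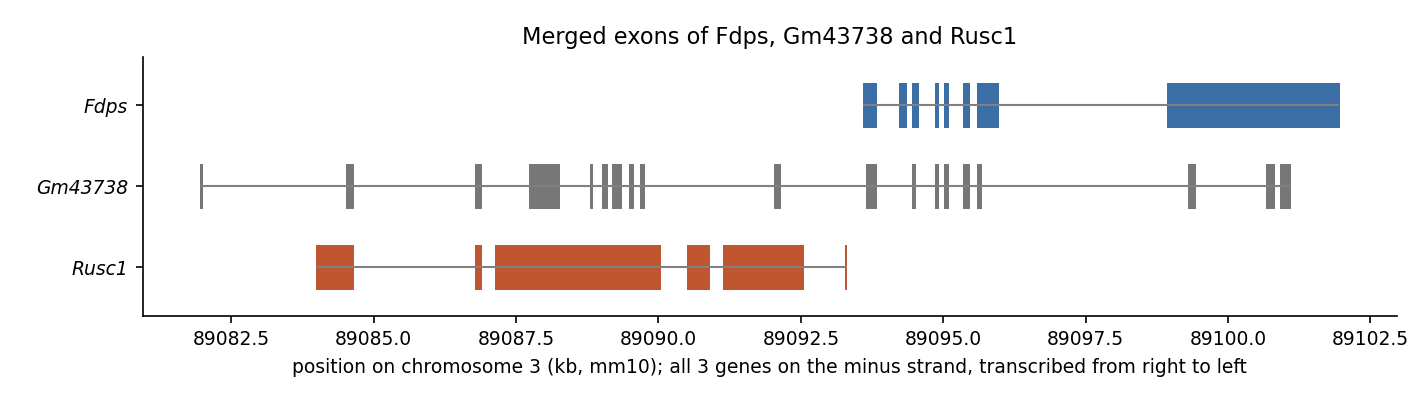
Merged exons of Fdps (blue), the read-through gene Gm43738 (grey) and Rusc1 (orange) along chromosome 3 of mm10, in kilobases, with thin lines for introns. Exons of Gm43738 line up with those of Fdps on the right and of Rusc1 on the left, and cover 1124 bases of Fdps.

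Fdps also has 5 processed pseudogenes, which are intronless copies of its mRNA elsewhere in the genome, at 95% identity or more over at least 76 bases. They cover 76.8% of the same transcript. Gm3571 on chromosome 10 (93778660 to 93779719) is 98.9% identical over 1062 bases, and Gm5873 on chromosome 6 (6735427 to 6736492) is 96.7% identical over 1066 bases. Of the 1307 stretches of 76 bases in the transcript, 420 (32.1%) occur letter for letter in at least 1 of the 5 copies, 326 of them in Gm3571. A stretch from the middle of the Fdps coding sequence shows how little separates them. It is given 5′ to 3′ with the bases that differ from Fdps in capitals, from GENCODE M21 transcripts of mm10. In Fdps it lies on the minus strand within chr3:89095429-89095626 and crosses an intron, in Gm3571 on the plus strand at chr10:93778995-93779070 and in Gm5873 on the minus strand at chr6:6736082-6736157.
Fdps: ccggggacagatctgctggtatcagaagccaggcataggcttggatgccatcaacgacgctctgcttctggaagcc
Gm3571: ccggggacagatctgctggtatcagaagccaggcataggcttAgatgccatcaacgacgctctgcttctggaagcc
Gm5873: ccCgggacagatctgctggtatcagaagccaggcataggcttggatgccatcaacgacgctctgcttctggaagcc

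Each copy differs from Fdps at 1 of these 76 bases. More counts were assigned to the pseudogenes than to Fdps in every tumor. Over the 9 tumors the 5 pseudogenes held 1154 counts and Fdps 258, so that 81.7% of the counts on this family lay on the copies, from 57.6% in M9 to 91.6% in M624. Summed over Fdps and its copies, the level was 24.1, 17.7, 10.5 and 9.97 CPM in F187, F325, F331 and F368. In M351, M408, M9, M624 and M664 it was 21.5, 8.06, 26.3, 23.1 and 8.72 CPM. The sums overlapped between the groups as Fdps alone did, and their log2 fold change was 0.16 ± 0.45 (SE). Gm3571 (log2 fold change -0.08, adjusted p = 0.942) and Gm5873 (-0.09, adjusted p = 0.939) did not pass the quasi-likelihood test of edgeR, adjusted by Benjamini-Hochberg.

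The other members share a smaller part of their exons with other genes. Slc37a3 (ENSMUSG00000029924), on chromosome 6 of mm10 from 39334773 to 39377675 on the minus strand, shares no exon base with another annotated gene and has no near copy among the annotated transcripts. Atraid (ENSMUSG00000013622), on chromosome 5 from 31048312 to 31054623 on the plus strand, shares 396 of 2082 exon bases (19.0%) with Slc5a6, the sodium-dependent multivitamin transporter, on the opposite strand, of which 5 lie in its longest coding transcript of 966 bases. Slc5a6 rose in the Myc-knockin tumors, from 3.40 ± 0.47 CPM (SD, n = 4) to 16.2 ± 11.8 CPM (SD, n = 5), with a log2 fold change of 2.28 ± 0.56 (SE) and an adjusted p of 0.0426 by edgeR's quasi-likelihood test. Its highest values, 35.5 and 17.1 CPM, were those of M624 and M664, the same pair in which Atraid was highest. The strand setting of the counting was not stated, so reads of Atraid and Slc5a6 on the shared bases cannot be told apart, and their part in the Atraid values was not tested. Ggps1 (ENSMUSG00000021302), on chromosome 13 from 14050659 to 14063488 on the minus strand, shares 257 of 4721 exon bases (5.44%) with Arid4b on the opposite strand, whose log2 fold change was 0.01 ± 0.33 (SE, adjusted p = 0.992 by edgeR). A processed pseudogene of Ggps1, Gm5630, is 97.2% identical over 903 bases and held 23 counts over the 9 tumors, against 3371 for Ggps1.

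Per kilobase of exon, which allows levels to be compared between genes, the order of the members differed between the groups. In the p53-driven tumors it was Slc37a3 with 20.1 ± 3.25 CPM per kilobase (SD, n = 4), Ggps1 with 9.61 ± 1.78, Atraid with 8.22 ± 1.65 and Fdps with 0.838 ± 0.269. Slc37a3 stood above the other 3 in each p53-driven tumor, and Ggps1 and Atraid lay within each other's spread. In the Myc-knockin tumors the order was Atraid with 11.0 ± 5.01 CPM per kilobase (SD, n = 5), Ggps1 with 6.33 ± 1.97, Slc37a3 with 5.70 ± 0.516 and Fdps with 1.15 ± 0.927. The difference between Ggps1 and Slc37a3 there was smaller than the spread of Ggps1. Ggps1 stood above Atraid in M351 (7.04 and 6.50 CPM per kilobase) and M408 (8.07 and 7.39). In M9, M624 and M664 Atraid stood above Ggps1. Slc37a3 stood above 89.0% of the tested genes in the p53-driven tumors and above 62.2% in the Myc-knockin tumors by its mean level per kilobase. Fdps stood above 17.6% and 17.1%, a low place that holds only for the counts assigned to it. The order depended on the length used. Per kilobase of the longest coding transcript, a choice made after seeing the data, the levels of Fdps were 3.04 times and those of Atraid 2.15 times as high as per kilobase of merged exons. The p53-driven order was then Slc37a3 (26.9 ± 4.37 CPM per kilobase, SD, n = 4), Atraid (17.7 ± 3.55), Ggps1 (10.7 ± 1.98) and Fdps (2.55 ± 0.82). The Myc-knockin order was Atraid (23.7 ± 10.8 CPM per kilobase, SD, n = 5), Slc37a3 (7.66 ± 0.69), Ggps1 (7.04 ± 2.19) and Fdps (3.51 ± 2.82).

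The ratio of the transporter to its partner, in CPM per kilobase of merged exons, was 2.22, 2.42, 1.69 and 4.01 in F187, F325, F331 and F368. It was 0.752, 0.811, 0.700, 0.367 and 0.352 in M351, M408, M9, M624 and M664. Per kilobase of the longest coding transcript it was 1.38, 1.51, 1.05 and 2.50 in the p53-driven tumors, so that F331 had nearly equal levels, and from 0.219 to 0.505 in the Myc-knockin tumors. The ratio thus lay above 1 in each p53-driven tumor and below 1 in each Myc-knockin tumor, which restates the difference in Slc37a3 and is no separate result. Within the Myc-knockin group, M624 and M664 had the lowest ratios through their higher Atraid.

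The members did not vary together inside the groups. After the group means were taken from log2 CPM, Pearson's r over the 9 tumors was 0.0146 between Slc37a3 and Atraid and -0.434 between Fdps and Ggps1, and the 6 pairs ranged from -0.477 to 0.0258. Among 9538 tested genes with a mean of at least 10 CPM, the deviations most like those of Slc37a3 were those of Maco1 (r = 0.961), Tns2 (r = 0.950) and Tns1 (r = 0.947). For Atraid they were Hspbp1 (r = 0.976), Spg7 (r = 0.970) and Retreg2 (r = 0.969). For Ggps1 they were Xpo1 (r = 0.964), Heatr1 (r = 0.953) and Ccna2 (r = 0.943). For Fdps, out of 9539 genes, they were Speg (r = 0.960), Scn2a (r = 0.955) and Dnm3 (r = 0.954). Spearman's rank correlation for these 12 genes was between 0.817 and 0.967. Each r is a description over the same 9 libraries, picked as the highest of all genes compared, and the libraries share their differences in depth and satellite reads.

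RefSeq promoter windows of 300 bases, 250 before and 50 after the transcript start on GRCm38.p6, were matched for 3 of the 4 members, and Fdps had none. They were searched on both strands for CACGTG, the E-box that MYC binds together with MAX, and for TCACNCCAC, a sterol regulatory element bound by SREBP factors, since Myc differs between the groups and sterol genes share the latter. CACGTG occurred in 1 of the 2 windows of Slc37a3 and in neither the Atraid nor the Ggps1 window, against 7.15% of 32851 windows of all genes. TCACNCCAC occurred in none of the 4 windows, against 1.24% of all. The Slc37a3 window with the match is shown 5′ to 3′ with CACGTG in capitals. It lies at chr6:39377658-39377957 on the minus strand, and the match begins 13 bases before the transcript start.
Slc37a3: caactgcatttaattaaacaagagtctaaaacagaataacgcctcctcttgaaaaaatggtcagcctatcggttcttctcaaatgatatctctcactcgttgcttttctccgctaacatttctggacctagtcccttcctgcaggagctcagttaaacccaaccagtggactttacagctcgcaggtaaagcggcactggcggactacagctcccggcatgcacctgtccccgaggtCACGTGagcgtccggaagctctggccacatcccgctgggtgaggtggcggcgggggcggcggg

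A match is a description of letters and no binding was measured.

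Around the members, 8 of 76 tested pathway genes were called (2 as higher, 6 as lower in the Myc-knockin group) by edgeR's quasi-likelihood test. Among them were Pdss1, Fntb, Rhoc, Rac2, Rab5a, Slc37a2 and Npc1. The median log2 fold change of the 76 was -0.04, beside 0.14 for all 15365 genes tested. Scaling by library size alone moved the latter median to 0.03 and left 0 of the 76 called by edgeR (12 at an unadjusted p under 0.05). Each of the 8 calls kept its sign in every alternative in which it was tested, but none was made when F325, F331 or F368 was left out. The numbers at an unadjusted p under 0.05 were then 20, 21 and 17 of the pathway genes. Without F187, M351 or M624 edgeR called 4, 3 and 3 pathway genes.

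The mevalonate enzymes before Fdps, which build its substrates from acetyl-CoA, had no call among 7 tested genes. The largest differences were those of Idi1, the isomerase just before Fdps (log2 fold change 1.81 ± 0.69, SE, adjusted p = 0.126), and Mvd (1.22 ± 0.63, SE, adjusted p = 0.244), and neither passed the quasi-likelihood test of edgeR, adjusted by Benjamini-Hochberg. At an unadjusted p under 0.05 there was 1 gene by edgeR, and DESeq2 called 1 and limma-voom 0. The list's median log2 fold change was 0.17, but -0.30 without M624 and M664, and 1.05 with 2 genes called as higher without the 4 libraries with satellite reads.

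Sterol enzymes after squalene synthase had 0 of 11 called by edgeR (2 at an unadjusted p under 0.05), while DESeq2 called 1 and limma-voom 0. Their median log2 fold change was 0.03, and it was -0.04 under scaling by library size alone, -0.27 without M624 and M664 and 0.32 without the 4 libraries with satellite reads. Tm7sf2 (1.56 ± 0.77, SE, adjusted p = 0.222) and Dhcr7 (1.31 ± 0.47, SE, adjusted p = 0.107) had the largest log2 fold changes and did not pass edgeR's test. The genes for SREBP regulation and uptake of LDL control the pathway and supply cholesterol from outside. Of these, edgeR called 0 of 10 (3 at an unadjusted p under 0.05). DESeq2 called 3, 1 as higher and 2 as lower in the Myc-knockin group, and limma-voom called 2, both as lower. Scap, the escort of SREBP, was 22.6 ± 4.85 CPM (SD, n = 4) in the p53-driven and 61.8 ± 37.6 CPM (SD, n = 5) in the Myc-knockin group, and its adjusted p of 0.0707 by edgeR did not pass. Insig1 and Mylip were lower in the Myc-knockin group, without overlap between the groups. Their log2 fold changes were -1.15 ± 0.34 (SE, adjusted p = 0.0660 by edgeR) and -1.10 ± 0.32 (SE, adjusted p = 0.0650 by edgeR), and neither passed. The list's median log2 fold change was 0.08, but -0.34, with 1 gene called as lower, without M624 and M664. Without the 4 libraries with satellite reads it was 0.66, with 3 genes called as higher.

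Downstream of Fdps, 1 of 7 other enzymes that use farnesyl or geranylgeranyl pyrophosphate was called. Pdss1, a subunit of the enzyme that makes the side chain of ubiquinone, rose from 7.25 ± 0.84 CPM (SD, n = 4) to 16.6 ± 1.96 CPM (SD, n = 5), with a log2 fold change of 1.20 ± 0.28 (SE) and an adjusted p of 0.0370 by edgeR's quasi-likelihood test. Its groups did not overlap. Fdft1, squalene synthase, at the branch point to sterols, had a log2 fold change of 1.18 ± 0.43 (SE, adjusted p = 0.114 by edgeR), and Cox10, which attaches a farnesyl tail to heme, had 0.89 ± 0.37 (SE, adjusted p = 0.153). The median of the 7 was 0.26, with 0.15 without M624 and M664, 0.08 without M664 alone, 0.61 with 2 genes called as higher without the 4 libraries with satellite reads, and 0.04 by limma-voom.

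Among 11 genes for protein prenylation and CAAX processing, 1 was called. Fntb, the beta subunit of farnesyltransferase, rose from 6.27 ± 0.75 CPM (SD, n = 4) to 20.5 ± 9.93 CPM (SD, n = 5), with a log2 fold change of 1.72 ± 0.43 (SE) and an adjusted p of 0.0448 by edgeR's quasi-likelihood test. M408 was lowest of the Myc-knockin tumors at 6.96 CPM, just above the highest p53-driven tumor at 6.84 CPM. Rabggta, a subunit of the enzyme that prenylates Rab proteins (1.505 ± 0.56, SE, adjusted p = 0.119 by edgeR), and Ptar1 (-0.99 ± 0.39, SE, adjusted p = 0.137) had the next largest log2 fold changes and did not pass. The median of the 11 was 0.35, and 0.13 under scaling by library size alone. Without M624 and M664 it was 0.02, with 0 genes called by edgeR (2 at an unadjusted p under 0.05). Limma-voom, and edgeR with satellite genes removed, also called 0 (5 each at an unadjusted p under 0.05). Without the 4 libraries with satellite reads edgeR called 6, 4 as higher and 2 as lower.

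Of 17 prenylated small GTPases, the proteins whose lipid anchors bisphosphonates deplete, 4 were called and all 4 were lower in the Myc-knockin tumors. Rab5a, of the early endosome, had a log2 fold change of -1.22 ± 0.27 (SE, adjusted p = 0.0328 by edgeR), and Rhoc, a regulator of actin, had -1.67 ± 0.39 (SE, adjusted p = 0.0392 by edgeR). Neither gene had overlapping groups. Rac2, the Rac protein of blood cells, had the largest log2 fold change of the 4 (-2.15 ± 0.56, SE, adjusted p = 0.0492 by edgeR), and F368 at 15.1 CPM lay below M664 at 21.9 CPM. Rac2 had the same order as the summed osteoclast markers over the p53-driven tumors, at 91.9 CPM in F331, 45.8 in F187, 36.1 in F325 and 15.1 in F368. Between the groups the mean of the osteoclast sum was 7752 ± 5089 CPM (SD, n = 4) in the p53-driven and 814 ± 1057 CPM (SD, n = 5) in the Myc-knockin group, and that of the macrophage sum 1291 ± 291 and 633 ± 344 CPM. Their part in the lower pathway genes, the GTPases, Slc37a2 and Npc1, was not tested. Over the 17 the median was -0.48, and 13 of the 17 had a negative log2 fold change, beside 6736 of the 15365 genes tested.

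Slc37a2, a relative of Slc37a3 known from macrophages and osteoclasts, had a larger difference than Slc37a3. It was 184, 143, 378 and 89.7 CPM in F187, F325, F331 and F368. It was 19.7, 6.41, 13.5, 19.0 and 43.4 CPM in M351, M408, M9, M624 and M664. The groups did not overlap, and the log2 fold change was -3.26 ± 0.56 (SE) with an adjusted p of 0.0217 by edgeR's quasi-likelihood test. Its order over the p53-driven tumors, highest in F331 and lowest in F368, was the opposite of that of Slc37a3. Slc37a1 (2.00 ± 1.37, SE, adjusted p = 0.375 by edgeR) and Slc37a4, the glucose-6-phosphate transporter of the endoplasmic reticulum (0.97 ± 0.53, SE, adjusted p = 0.262), did not pass.

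Lysosomal membrane proteins other than Slc37a3 had 1 call of 10. Npc1, which exports cholesterol from the lysosome, fell from 94.0 ± 17.4 CPM (SD, n = 4) to 32.5 ± 9.47 CPM (SD, n = 5), with a log2 fold change of -1.53 ± 0.27 (SE) and an adjusted p of 0.0217 by edgeR's quasi-likelihood test. Lamp2, an abundant structural protein of that membrane, had a log2 fold change of -1.17 ± 0.31 (SE) and an adjusted p of 0.0542 by edgeR, and Scarb2 had -0.62 ± 0.33 (SE, adjusted p = 0.260), and neither passed. Over the 10 the median was -0.45, and 8 of the 10 had a negative log2 fold change. The median was -0.28 without F331 and -0.02, with 3 genes called as lower, without the 4 libraries with satellite reads.

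Markers of osteoclasts, the cells in which bisphosphonates chiefly act, moved with the groups. Of 11, edgeR called 8, all lower in the Myc-knockin tumors. They were Ctsk, Oscar, Dcstamp, Ocstamp, Calcr, Atp6v0d2, Tnfrsf11a and Nfatc1, with log2 fold changes from -5.02 to -2.23 and adjusted p from 0.0116 to 0.0348. Their count was 9 without M624 and M664, 6 without the 4 libraries with satellite reads, 6 under scaling by library size alone, and 1 when F325, F331 or F368 was left out. The list's median was -3.71. Its summed level was 7620, 5542, 14841 and 3005 CPM in F187, F325, F331 and F368, and 460, 348, 193, 372 and 2698 CPM in M351, M408, M9, M624 and M664. Mmp9 had the highest mean CPM of the 11 in both groups, and Dcstamp, which drives the fusion of osteoclast precursors, had 0 counts in M408.

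In the p53-driven tumors the order of Slc37a3 was the reverse of that of the osteoclast sum, with F331 highest for the sum and lowest for Slc37a3, and F368 lowest for the sum and highest for Slc37a3. M664 and F368 had sums of 2698 and 3005 CPM and Slc37a3 levels of 33.6 and 125 CPM, but their markers were not alike. Mmp9 (1627 and 1209 CPM) and Acp5 (481 and 412 CPM) were higher in M664 than in F368, and the other 9 of the 11 were lower, among them Ctsk (425 and 901 CPM), Atp6v0d2 (22.8 and 121 CPM) and Calcr (0.691 and 29.9 CPM). Among the Myc-knockin tumors the sum ranged from 193 to 2698 CPM and Slc37a3 from 26.5 to 33.6 CPM. The part of osteoclast content in the difference between the groups was not tested beyond these values.

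**Figure D3:**
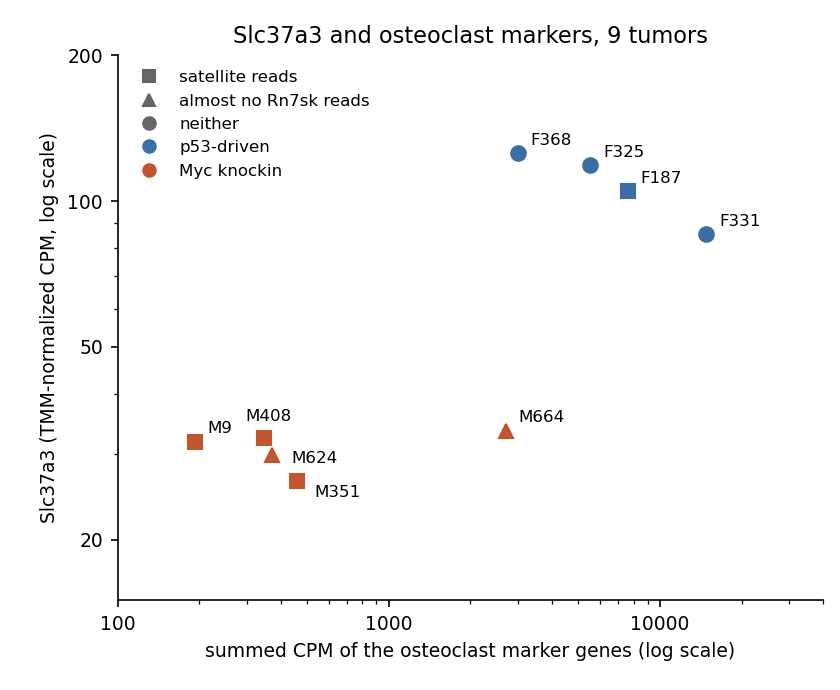
Slc37a3 (CPM, log scale) against the summed CPM of 11 osteoclast markers (log scale) in each p53-driven (blue) and Myc-knockin (orange) tumor, with the kind of library as the marker shape. The sums of the Myc-knockin tumors lie between 193 and 2698 CPM, and 9 of the 11 markers were lower in M664 than in F368, whose sum is 3005 CPM.

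Macrophage markers had 3 of 13 called, Csf1r, Cd68 and Tyrobp, all lower in the Myc-knockin tumors, with log2 fold changes of -2.47 ± 0.47, -2.27 ± 0.42 and -2.13 ± 0.50 (SE) and adjusted p of 0.0243, 0.0229 and 0.0392 by edgeR. Osteoclasts, which share a precursor with macrophages, also express these 3. Of the 13, 4 had a positive log2 fold change and 9 a negative one. The summed level was 929, 1196, 1592 and 1446 CPM in F187, F325, F331 and F368, and 446, 703, 396, 414 and 1208 CPM in M351, M408, M9, M624 and M664. Lyz2 had the highest mean CPM over all 9 tumors and in the Myc-knockin group (161), and Csf1r (315) and Cd68 (238) stood above Lyz2 (210) in the p53-driven group. No marker of this list was at 0, and the list's median was -0.68. With F325, F331 or F368 left out, or under scaling by library size alone, edgeR called 0 of the 13, with 4, 6, 3 and 5 at an unadjusted p under 0.05. The part of macrophage content in the values of the members was not tested.

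Osteoblast markers, for the lineage in which Cre is active, had 2 of 12 called, Bglap and Bglap2, the genes of osteocalcin, with log2 fold changes of -5.34 ± 1.05 and -5.42 ± 1.13 (SE) and adjusted p of 0.0260 and 0.0288 by edgeR. Bglap had 0 counts in M408 and Bglap2 in M408 and M624. Their highest Myc-knockin values, 3.98 and 6.37 CPM, were both in M9, where 3 counts correspond to 2.39 CPM. These fold changes thus rest in part on very few counts. Col1a1 had the highest mean CPM of the list in both groups. The sum was 62395, 136999.9, 132332 and 140919 CPM in F187, F325, F331 and F368, and 15780, 7752, 18908, 3416 and 40389 CPM in M351, M408, M9, M624 and M664. Runx2, a defining factor of the lineage, was 9.18 CPM in M624 and from 132 to 371 CPM in the other 8 tumors. The list's median was -1.43. With F325, F331 or F368 left out, edgeR called 0 of the 12, with 4 each at an unadjusted p under 0.05. The part of osteoblast content in the values of the members was not tested.

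Skeletal muscle markers had 0 of 9 called by edgeR, DESeq2 and limma-voom (0 at an unadjusted p under 0.05 by edgeR), and Myh4 (-2.86 ± 1.78, SE, adjusted p = 0.329 by edgeR) and Pvalb (-2.18 ± 1.49, SE, adjusted p = 0.374) had the largest log2 fold changes. Without the 4 libraries with satellite reads edgeR called 1 of the 9, as lower, and the list's median turned from -0.69 to 2.16 without F325. Acta1 had the highest mean CPM over all 9 tumors and in the Myc-knockin group (228), and Myh4 (385) stood above Acta1 (367.8) in the p53-driven group. The sum of the muscle markers was 25.7, 5257, 42.6 and 516 CPM in F187, F325, F331 and F368, and 117, 2172, 500, 11.8 and 575 CPM in M351, M408, M9, M624 and M664. F325 and M408, the tumors with the highest sums, had 119 and 32.4 CPM of Slc37a3, inside the range of their groups. The part of muscle content in the values of the members was not tested. Of 7 red cell markers 2 were tested, Slc4a1 (1.06 ± 0.88, SE, adjusted p = 0.466 by edgeR) and Alas2 (1.04 ± 0.58, SE, adjusted p = 0.276), and neither was called by edgeR, DESeq2 or limma-voom (0 at an unadjusted p under 0.05 by edgeR). With every gene of at least 1 count kept, edgeR called 3 of the 7 as higher, and without the 4 libraries with satellite reads 4 of 6 tested. Hba-a1, with the highest mean CPM over all 9 tumors (Alas2 in the p53-driven group), reached 102 CPM in M624, 388 CPM in M664 and had 0 counts in the other 7 tumors, so hemoglobin transcripts, like Rn7sk, set the pair apart in which Atraid was highest. The part of this difference in the Atraid values was not tested.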

How the data were processed

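RNA-Seq of 9 whole tumors (4 p53-driven, 5 Myc-knockin) was analysed from raw counts per gene deposited by the authors, who used a stranded total RNA kit with oligo-dT enrichment, paired-end sequencing, trimGalore, STAR on mm10 and featureCounts. The settings for strand and for reads with several matches were not stated. Counts were normalized by TMM and fitted with edgeR 4.0.16 (quasi-likelihood, R 4.3.3) on the 15365 genes that passed filterByExpr with a minimum count of 10, with Benjamini-Hochberg adjustment over all of them. Calls needed a fold change over 1.5 together with an adjusted p under 0.05. The SE of a log2 fold change is its size over the square root of F. A prior count of 2 was used for log2 CPM only. Total counts per tumor ran from 2716322 to 17073285. Intervals (exact Poisson, 95%) and the floor of 3 counts cover counting error only. Levels per kilobase used merged exons of GENCODE M21, and near copies came from blastn 2.17.0. Alternatives were other scalings and filters, DESeq2 1.42.0, limma-voom (limma 3.58.1), removal of satellite genes or genomic background, and leaving out libraries. The methods were tested on simulated data. Named were the members, Myc, Trp53, every called gene of a list or else the 2 with the largest log2 fold change, the 3 genes most like each member, and genes that overlap or copy a member. Some genes that met this rule are not used here. Runx2, Hba-a1, Insig1 and Mylip were named after their values were seen. The members and lists were chosen with earlier results of these data known.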

Additional observations from a re-analysis of the deposited data

Results flagged for a closer look

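In 17 of 106 groups of values, the highest or lowest tumor lay further from the others of its group than Dixon's 95% limit allows. For independent normal values chance gives about 1 in 20. Marker sums contain their own genes, so these groups are not independent, and no excess over chance is read from that number. None of the 8 groups of member values (4 genes in 2 groups) was among them. Each value below is in CPM and the highest of its group unless stated.

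Among the pathway genes, Idi1 was 17.9 in M624 (others 3.66 to 7.64) and Dhcr7 was 70.9 in M624 (others 14.3 to 23.2). Mvd was 9.48 in F187 (others 3.29 to 3.97). Scap was 29.8 in F325 (others 19.4 to 20.8). Slc37a1 was 6.71 in F187 (others 0.243 to 0.432). Npc1 was 48.9 in M408 (others 25.5 to 31.8).

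Among the markers, Ctsk was 425 in M664 (others 26.3 to 129) and the osteoclast sum was 2698 there (others 193 to 460). Tnfrsf11a was 144 in F331 (others 71.2 to 77.8), and Csf1r was 495 in F331 (others 241 to 269). Myh4 was 1399 in F325 (others 3.95 to 128) and Pvalb was 86 there (others 0.346 to 3.04). The skeletal muscle sum was 5257 in F325 (others 25.7 to 516) and 2172 in M408 (others 11.8 to 575). The osteoblast sum was lowest in F187, at 62395. The red cell sum was 21.2 in F368 (others 6.61 to 8.29) and 784 in M664 (others 17.5 to 217). No cause was tested for any of these values.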

How the results depend on the processing

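The log2 fold change of Slc37a3 was negative in 19 of 19 alternatives, from -1.91 to -1.70 (-1.91 to -1.74 with 1 tumor left out), and that of Ggps1 likewise, from -0.72 to -0.46. Atraid was -0.091 without M624 and M664 and 1.04 without F187, M351, M408 and M9, and from 0.22 to 0.60 with 1 tumor left out. Fdps ranged from -0.42 to 0.91 and was negative in 3 of 19, and with its near copies added, an alternative chosen after seeing the data, it was 0.16. The number of genes called (809) was 136 with library size alone, 494 with every gene of at least 1 count, 1316 with at least 10 counts in every tumor, 2646 by DESeq2, 1663 by limma-voom, 4595 without the 4 libraries with satellite reads, and from 5 to 1588 with 1 tumor left out. Upper-quartile scaling moved the share of called genes that were lower from 57.0% to 35.5%, and the median log2 fold change of all genes from 0.14 to 0.24. The number of pathway genes called (8) was 0 with library size alone (12 at an unadjusted p under 0.05), 3 with every gene of at least 1 count, 17 by DESeq2, 22 without those 4 libraries, and from 0 to 8 with 1 tumor left out. In the fit without those 4 libraries, the kind of library and the genotype coincide, so they cannot be told apart. The cause of these moves was not tested. No paired analysis was possible because the columns carry no replicate numbers. Of the 4 members Fdps had the fewest counts, 10 to 57 per tumor, and the part of depth in this was not tested.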
